A study of Mus musculus with 18 samples.

Results

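Respiratory complex I was followed in mouse CD4+ T cells through 34 genes named for its subunits. A gene counted as a member when its symbol begins with Ndufa, Ndufb, Ndufc, Ndufs or Ndufv, leaving out the Ndufaf assembly factors, and when at least 1 probe set was annotated to that gene alone. These were 34 of the 12393 genes with such a probe set, and the probe set of highest average signal across 18 arrays stood for each gene. All members but Ndufb1 were tested, 33 of 6873 genes, and each of the 33 lay at or above log2 4, the floor for testing, on all 18 arrays. Ndufb1 lay under that floor on every array, with group means from 2.47 with XCT790 to 3.41 in stimulated knockout cells, and no change is drawn from it.

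Complex I takes electrons from NADH, passes them along iron-sulfur clusters to ubiquinone and pumps protons across the inner mitochondrial membrane. Its core subunits carry out catalysis, and those of the peripheral arm are all encoded in the nucleus, while the core subunits of the membrane arm are encoded by mitochondrial DNA and are not members. The accessory subunits surround the core and are needed for assembly and stability. T cells build up mitochondrial capacity when they leave quiescence, and estrogen related receptor alpha (ERRα, gene Esrra) is a nuclear receptor known for driving genes of oxidative metabolism.

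The study compared 6 groups of 3 Affymetrix arrays, which its design text calls independent biological replicates. The cells came from mice 6 to 8 weeks old and had been purified by removing other cell types with magnetic beads. Wild-type cells were taken directly from the animals (resting), were stimulated for 12 h with 10 µg of antibodies to CD3 and CD28, or were cultured with 20 µM XCT790, a known inverse agonist of ERRα, or with 20 µM compound A, which the study names as another ERRα inhibitor and which is known here by that name only. Knockout cells, from ERRa-/- mice, were resting or stimulated in the same way, and no inhibitor was given to knockout cells. The protocol places both inhibitors in the stimulation, whereas the stimulation label of these 6 arrays reads as unstimulated, so the inhibitor groups were set against both stimulated and resting wild-type cells. Strain, sex, vehicle, the construction of the ERRa-/- allele and the number of animals behind an array were not given in the sources used here. Values are log2 signals, where a difference of 1 is a 2-fold change. Signals of different probe sets are not on a common scale of abundance, so each subunit was compared only with itself across groups.

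On the Esrra probe set, the mean signal in wild-type cells was 5.42 ± 0.15 (SD, n = 3) at rest and 5.37 ± 0.09 after stimulation, against 4.55 ± 0.18 and 4.45 ± 0.23 in knockout cells. The fall in knockout cells passed the test at rest (-0.87, adjusted p 2.16e-04) and after stimulation (-0.92, adjusted p 3.31e-04), and where this probe set lies relative to the deleted part was not given in the sources used here. T cell markers lay at or above log2 4 on all arrays, 6 of 6 genes. Resting arrays also carried signal of other cells: all 7 macrophage markers were above the floor on every resting array, with array means from 8.35 to 9.36 in wild-type and from 8.80 to 10.6 in knockout cells, whereas 0 or 1 of 7 was above it in each cultured group. Erythroid markers had array means from 4.48 to 7.31 in resting wild-type, from 8.88 to 10.6 in resting knockout and at most 3.07 in cultured cells. Cultured arrays were not free of such signal. On them 3 or 4 of 6 B cell, 1 or 2 of 3 natural killer (NK) cell and 0 to 5 of 9 neutrophil markers lay at or above the floor. The 5′ probe set of dap, a bacterial transcript added as a control, read from 3.73 to 6.03 on the 6 untreated wild-type arrays and from 7.21 to 8.07 on the 12 others, while its 3′ probe set differed by -0.01 between these sets of arrays. The labels name no batch, and how far these differences bear on the results below was not tested.

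The sequences upstream of 5 members are printed because these genes carry the main contrasts below: Ndufa5, Ndufb2 and Ndufs5 were among the deepest falls with XCT790, Ndufb6 had the largest rise on activation, and Ndufa6 was the member called higher with both inhibitors. Ndufb3, which fell by more than Ndufb2 and Ndufs5 with XCT790, was not printed. Each is the 250 bases before the annotated gene start in RefSeq (GRCm38.p6), read 5′ to 3′ on the strand of the gene (plus for Ndufb2, minus for the others). Capitals mark AAGGTCA, the core sequence bound by ERR family receptors, or CCGGAAG, a sequence bound by ETS family factors, or the reverse complement of either.
Ndufa5 (chr6:24527691-24527940): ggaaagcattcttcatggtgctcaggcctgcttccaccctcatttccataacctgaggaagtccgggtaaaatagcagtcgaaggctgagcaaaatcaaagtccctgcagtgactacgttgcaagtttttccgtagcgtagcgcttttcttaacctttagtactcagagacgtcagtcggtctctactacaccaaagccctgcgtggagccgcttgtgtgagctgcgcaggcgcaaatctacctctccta
Ndufb2 (chr6:39592315-39592564): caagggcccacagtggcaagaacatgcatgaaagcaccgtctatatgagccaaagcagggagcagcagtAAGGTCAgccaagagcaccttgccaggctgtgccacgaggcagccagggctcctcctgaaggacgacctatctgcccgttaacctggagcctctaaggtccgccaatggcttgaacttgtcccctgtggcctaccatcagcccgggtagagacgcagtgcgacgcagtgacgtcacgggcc
Ndufs5 (chr4:123718187-123718436): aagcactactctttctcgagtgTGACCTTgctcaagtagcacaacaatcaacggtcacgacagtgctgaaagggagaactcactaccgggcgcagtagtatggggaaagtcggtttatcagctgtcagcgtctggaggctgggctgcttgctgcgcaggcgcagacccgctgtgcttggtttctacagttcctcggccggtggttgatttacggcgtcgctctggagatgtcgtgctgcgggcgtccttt
Ndufb6 (chr4:40279422-40279671): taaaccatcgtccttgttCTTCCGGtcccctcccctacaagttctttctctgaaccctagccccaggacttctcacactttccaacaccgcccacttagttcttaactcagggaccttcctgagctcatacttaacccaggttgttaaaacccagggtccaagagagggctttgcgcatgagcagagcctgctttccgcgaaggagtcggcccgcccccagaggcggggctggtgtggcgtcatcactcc
Ndufa6 (chr15:82354292-82354541): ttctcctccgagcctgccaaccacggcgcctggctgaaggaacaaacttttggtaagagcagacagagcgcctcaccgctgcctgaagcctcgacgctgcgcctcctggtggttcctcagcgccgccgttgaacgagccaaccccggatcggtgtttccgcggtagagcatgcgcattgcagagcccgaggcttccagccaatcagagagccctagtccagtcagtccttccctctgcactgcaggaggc
Windows of 300 bases, from 250 before to 50 after the start, were held for 31 of the 34 members, and both strands were searched. These members had 33 windows, of which 2 held AAGGTCA and 4 held CCGGAAG. The member shares below count genes, whereas the shares they are set against count windows. AAGGTCA was found in 2 members (6.45%), against 4.72% of 32851 RefSeq promoter windows: on the gene strand of Ndufb2 from position -181 to position -175, and on the opposite strand of Ndufs5 from position -228 to position -222. The longer form TNAAGGTCA, which contains AAGGTCA, was in 0 of 31 members and in 1.28% of all windows. CCGGAAG was in 4 members (12.9%), namely Ndufs3, Ndufb6, Ndufb7 and Ndufs8, against 8.86% of all windows, and the palindrome bound by NRF-1 was in 0 members and 0.971% of windows. The 2 members with AAGGTCA are both among the 5 printed, so these 5 do not stand for all members. A match or its absence here describes letters in a window and not binding.

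**Figure D1:**
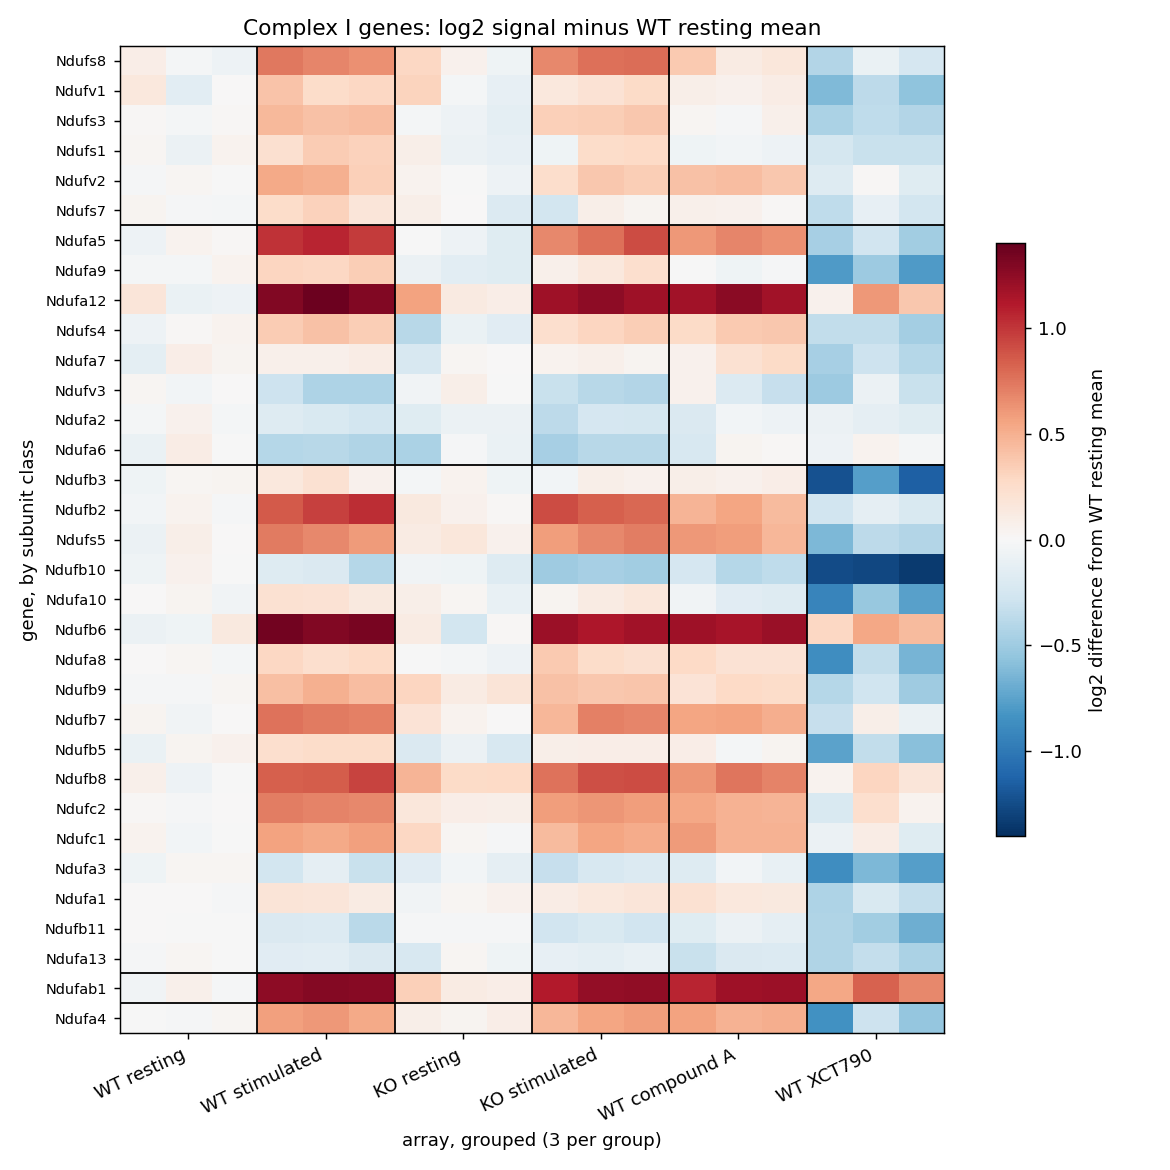
Log2 signal of the 33 tested members on each of the 18 arrays minus the mean of the 3 resting wild-type arrays (colour scale, log2). Rows are genes in 5 blocks (core of the peripheral arm, its accessory subunits, accessory subunits of the membrane arm, Ndufab1, Ndufa4). Most rows are red after stimulation in both genotypes and blue on the XCT790 arrays.

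Across the 33 members, the median difference from the resting wild-type mean was 0.33 to 0.36 on the stimulated wild-type arrays and 0.24 to 0.28 on the stimulated knockout arrays. It was 0.15 to 0.19 with compound A, -0.42 to -0.28 with XCT790 and -0.06 to 0.05 in resting knockout cells. The stimulated wild-type group had the highest of the 6 group means for 22 members, and XCT790 had the lowest for 25. How often these patterns occur over all genes was not counted. Within the XCT790 group, replicate 2 read highest for 28 members and replicate 1 read lowest for 24. The heat map of differences from resting cells shows these shifts as columns.

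The core subunits of the peripheral arm hold the NADH site, the flavin and the iron-sulfur clusters. Ndufv1, which binds NADH and the flavin, had group means of 10.58 at rest, 10.90 after stimulation, 10.67 with compound A and 10.07 with XCT790 in wild-type cells, and 10.64 at rest and 10.79 after stimulation in knockout cells. Its partner Ndufv2, which holds an iron-sulfur cluster, had means of 11.90 at rest, 12.35 after stimulation, 12.31 with compound A and 11.79 with XCT790 in wild-type cells, and 11.89 at rest and 12.22 after stimulation in knockout cells. In both genes the XCT790 mean was the lowest of the 6.

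Ndufs1, the large subunit with several iron-sulfur clusters, read 9.95, 9.84 and 9.97 on the resting and 10.14, 10.28 and 10.24 on the stimulated wild-type arrays. With compound A it read 9.87, 9.88 and 9.85, with XCT790 9.68, 9.61 and 9.60, and in knockout cells 10.00, 9.84 and 9.80 at rest and 9.86, 10.17 and 10.20 after stimulation. Every stimulated wild-type array lay above every resting, compound A and XCT790 array, while the first stimulated knockout array lay within the resting range.

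Ndufs3, a core subunit near the quinone end of the arm, read 11.43, 11.38 and 11.42 at rest and 11.86, 11.82 and 11.84 after stimulation in wild-type cells. It read 11.44, 11.39 and 11.48 with compound A and 10.97, 11.06 and 11.00 with XCT790, and in knockout cells 11.38, 11.34 and 11.27 at rest and 11.74, 11.76 and 11.79 after stimulation. The compound A arrays overlapped the resting wild-type arrays, and the XCT790 arrays lay below all others. Ndufs7, which carries the last iron-sulfur cluster before ubiquinone, had means of 11.11 at rest, 11.36 after stimulation, 11.16 with compound A and 10.86 with XCT790 in wild-type cells, and 11.07 at rest and 11.06 after stimulation in knockout cells.

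Ndufs8, which holds a pair of iron-sulfur clusters, read 11.78, 11.66 and 11.62 at rest and 12.43, 12.37 and 12.32 after stimulation in wild-type cells. With compound A it read 12.05, 11.80 and 11.84 and with XCT790 11.28, 11.60 and 11.45, against 11.98, 11.75 and 11.62 at rest and 12.36, 12.45 and 12.47 after stimulation in knockout cells. Compound A arrays lay between the resting and the stimulated wild-type arrays, and XCT790 arrays lay below both.

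Among the accessory subunits of the peripheral arm, Ndufa5 had the widest range of group means. It read 10.05, 10.18 and 10.15 at rest and 11.14, 11.19 and 11.11 after stimulation in wild-type cells. Compound A arrays read 10.73, 10.81 and 10.77 and XCT790 arrays 9.66, 9.86 and 9.64, and knockout arrays 10.12, 10.05 and 9.95 at rest and 10.80, 10.90 and 11.03 after stimulation. The groups fell in the order stimulated wild-type, stimulated knockout, compound A, resting, XCT790, with only stimulated knockout overlapping compound A and the resting genotypes overlapping each other.

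Ndufa12, a paralog of an assembly factor, read 11.78, 11.51 and 11.54 at rest and 12.91, 12.99 and 12.90 after stimulation in wild-type cells. It read 12.78, 12.87 and 12.78 with compound A, 11.67, 12.22 and 11.99 with XCT790, and 12.17, 11.74 and 11.70 and 12.80, 12.86 and 12.80 in resting and stimulated knockout cells. The XCT790 arrays lay in the region of the resting arrays, and no array of these 3 groups reached the stimulated or compound A arrays. Ndufa9, which binds NADPH, had means of 11.55 at rest, 11.87 after stimulation, 11.52 with compound A and 10.86 with XCT790 in wild-type cells, and 11.42 at rest and 11.70 after stimulation in knockout cells.

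Ndufs4, whose loss causes a Leigh-like disease in mice, had group means of 10.16 at rest, 10.54 after stimulation, 10.50 with compound A and 9.77 with XCT790 in wild-type cells, and 9.95 at rest and 10.46 after stimulation in knockout cells. Ndufa7 had means of 11.93 at rest, 12.02 after stimulation, 12.11 with compound A and 11.55 with XCT790 in wild-type cells, and 11.87 at rest and 11.99 after stimulation in knockout cells. Ndufs4 was lowest with XCT790 and highest in stimulated wild-type cells, and Ndufa7 was lowest with XCT790 and highest with compound A.

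Ndufa6, Ndufv3 and Ndufa2 did not follow that order. Ndufa6, which binds the acyl carrier protein Ndufab1 within complex I, read 11.82, 12.02 and 11.91 at rest and 11.51, 11.53 and 11.50 after stimulation in wild-type cells. It read 11.69, 11.96 and 11.93 with compound A and 11.85, 11.97 and 11.88 with XCT790, and 11.47, 11.90 and 11.82 and 11.45, 11.53 and 11.53 in resting and stimulated knockout cells. Both inhibitor groups lay above the stimulated arrays of both genotypes and overlapped the resting wild-type arrays, and the first resting knockout array lay apart from its other two, near the stimulated arrays.

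Ndufv3, a small subunit of the NADH end, read 11.53, 11.46 and 11.51 at rest and 11.21, 11.07 and 11.07 after stimulation in wild-type cells, 11.56, 11.32 and 11.18 with compound A and 10.99, 11.42 and 11.19 with XCT790. In knockout cells it read 11.46, 11.58 and 11.50 at rest and 11.19, 11.11 and 11.09 after stimulation. The inhibitor arrays spread from below the stimulated to above the resting wild-type arrays. Ndufa2, which has a thioredoxin-like fold, read 11.85, 11.93 and 11.86, 11.70, 11.66 and 11.62, 11.67, 11.84 and 11.80 and 11.80, 11.75 and 11.71 in the same order of groups. Its knockout arrays read 11.71, 11.80 and 11.80 at rest and 11.52, 11.65 and 11.63 after stimulation, so that every resting wild-type array lay above every other array.

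The accessory subunits of the membrane arm were the largest class, with 17 tested. Ndufb6 read 11.04, 11.06 and 11.26 at rest and 12.48, 12.42 and 12.45 after stimulation in wild-type cells. It read 12.31, 12.27 and 12.32 with compound A and 11.41, 11.66 and 11.57 with XCT790, and 11.23, 10.87 and 11.13 and 12.32, 12.26 and 12.29 in resting and stimulated knockout cells. XCT790 arrays lay between the resting and the stimulated arrays of both genotypes.

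Ndufb2 read 10.20, 10.29 and 10.22 at rest and 11.10, 11.20 and 11.27 after stimulation in wild-type cells. With compound A it read 10.71, 10.79 and 10.68, with XCT790 9.96, 10.11 and 10.02, and in knockout cells 10.38, 10.29 and 10.26 at rest and 11.15, 11.07 and 11.04 after stimulation. Compound A arrays lay between the resting and stimulated arrays without touching either, and XCT790 arrays lay under the resting ones.

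Ndufb3 read 11.00, 11.09 and 11.10 at rest and 11.21, 11.28 and 11.12 after stimulation in wild-type cells, 11.14, 11.12 and 11.15 with compound A, and 11.03, 11.11 and 11.01 and 11.02, 11.14 and 11.13 in resting and stimulated knockout cells. Its XCT790 arrays read 9.85, 10.29 and 9.92. Those 5 groups lay within a narrow band, and only the XCT790 arrays stood apart below it. Ndufb10, a cysteine-rich subunit facing the intermembrane space, read 10.55, 10.67 and 10.61 at rest, 10.43, 10.40 and 10.21 after stimulation, 10.37, 10.21 and 10.25 with compound A and 9.36, 9.34 and 9.26 with XCT790 in wild-type cells. Its knockout arrays read 10.56, 10.55 and 10.43 at rest and 10.11, 10.15 and 10.12 after stimulation. Stimulated arrays were thus below resting arrays in both genotypes, and XCT790 arrays lay far below all of them.

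Ndufs5, another cysteine-rich subunit of that side, read 9.85, 10.02 and 9.94 at rest, 10.67, 10.61 and 10.54 after stimulation, 10.55, 10.52 and 10.41 with compound A and 9.30, 9.57 and 9.53 with XCT790 in wild-type cells. Knockout arrays read 10.05, 10.10 and 9.99 at rest and 10.52, 10.61 and 10.65 after stimulation. Stimulated knockout and wild-type arrays overlapped, as did compound A and stimulated arrays.

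Ndufb8 read 10.48, 10.34 and 10.41 on resting wild-type and 10.89, 10.68 and 10.69 on resting knockout arrays. After stimulation it read 11.25, 11.26 and 11.36 in wild-type and 11.17, 11.31 and 11.33 in knockout cells, and it read 11.02, 11.16 and 11.11 with compound A and 10.46, 10.71 and 10.57 with XCT790. The resting genotypes did not overlap, whereas the stimulated ones did. Ndufb9, which like Ndufa6 binds an acyl carrier protein, read 11.60, 11.60 and 11.64 on resting wild-type and 11.91, 11.73 and 11.80 on resting knockout arrays. Its stimulated arrays read 12.03, 12.12 and 12.05 in wild-type and 12.02, 11.99 and 12.01 in knockout cells, with 11.81, 11.89 and 11.87 under compound A and 11.22, 11.33 and 11.12 under XCT790. Neither the resting nor the stimulated genotypes overlapped, and the direction differed between them by value.

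Ndufb11, encoded on the X chromosome, read 12.87, 12.86 and 12.86 at rest, 12.66, 12.67 and 12.48 after stimulation, 12.70, 12.78 and 12.74 with compound A and 12.44, 12.38 and 12.18 with XCT790 in wild-type cells. In knockout cells it read 12.85, 12.85 and 12.84 at rest and 12.59, 12.65 and 12.59 after stimulation. Resting arrays were the highest in both genotypes. Ndufa1, also X-linked, read 13.18, 13.18 and 13.16, 13.36, 13.35 and 13.29, 13.39, 13.33 and 13.31 and 12.74, 12.96 and 12.84 in the same order, and 13.13, 13.21 and 13.23 and 13.28, 13.32 and 13.35 in resting and stimulated knockout cells. Only its XCT790 arrays stood well apart from the others.

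Ndufa3 read 13.22, 13.31 and 13.31 at rest, 13.02, 13.15 and 12.96 after stimulation, 13.09, 13.24 and 13.18 with compound A and 12.41, 12.65 and 12.51 with XCT790 in wild-type cells. Its knockout arrays read 13.12, 13.24 and 13.15 at rest and 12.95, 13.05 and 13.09 after stimulation. Ndufa13, also studied as a cell death regulator, read 12.60, 12.64 and 12.61, 12.46, 12.47 and 12.41, 12.30, 12.41 and 12.43 and 12.20, 12.28 and 12.17, and 12.40, 12.65 and 12.56 and 12.50, 12.48 and 12.51 in resting and stimulated knockout cells. For both genes the mean was highest in resting wild-type cells and lowest with XCT790.

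The 6 other subunits of this arm are given by group means. Ndufa10, which resembles nucleoside kinases, had means of 11.80 at rest, 11.99 after stimulation, 11.67 with compound A and 11.06 with XCT790 in wild-type cells, and 11.80 at rest and 11.91 after stimulation in knockout cells. Ndufa8, another cysteine-rich subunit, had means of 11.20 at rest, 11.47 after stimulation, 11.43 with compound A and 10.58 with XCT790 in wild-type cells, and 11.17 at rest and 11.49 after stimulation in knockout cells. For both, every XCT790 array lay below every other array.

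Ndufb5 had means of 11.75 at rest, 12.00 after stimulation, 11.78 with compound A and 11.19 with XCT790 in wild-type cells, and 11.58 at rest and 11.84 after stimulation in knockout cells. Ndufb7, also cysteine-rich, had means of 11.32 at rest, 12.05 after stimulation, 11.86 with compound A and 11.21 with XCT790 in wild-type cells, and 11.40 at rest and 11.93 after stimulation in knockout cells. Ndufb5 with XCT790 lay under its resting level, and Ndufb7 with XCT790 lay near it on the chosen probe set. Ndufc1 had means of 11.39 at rest, 11.94 after stimulation, 11.91 with compound A and 11.34 with XCT790 in wild-type cells, and 11.49 at rest and 11.89 after stimulation in knockout cells. Ndufc2 had means of 12.38 at rest, 13.08 after stimulation, 12.88 with compound A and 12.40 with XCT790 in wild-type cells, and 12.49 at rest and 12.98 after stimulation in knockout cells. With XCT790, both lay close to the resting wild-type level.

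Ndufab1 is the mitochondrial acyl carrier protein, which also serves fatty acid synthesis and iron-sulfur cluster assembly. It read 11.19, 11.32 and 11.22 at rest and 12.49, 12.53 and 12.51 after stimulation in wild-type cells, 12.31, 12.44 and 12.44 with compound A and 11.79, 12.07 and 11.91 with XCT790. Knockout arrays read 11.57, 11.36 and 11.34 at rest and 12.36, 12.47 and 12.49 after stimulation. The XCT790 arrays lay between resting and stimulated cells. Ndufa4 carries the family name but is now held to belong to complex IV. It read 12.66, 12.66 and 12.70, 13.25, 13.28 and 13.21, 13.24, 13.16 and 13.18 and 11.82, 12.38 and 12.13 in the same order, and 12.75, 12.71 and 12.77 and 13.14, 13.23 and 13.26 in resting and stimulated knockout cells. Its XCT790 arrays lay below all others, and its compound A arrays overlapped the stimulated ones.

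**Figure D2:**
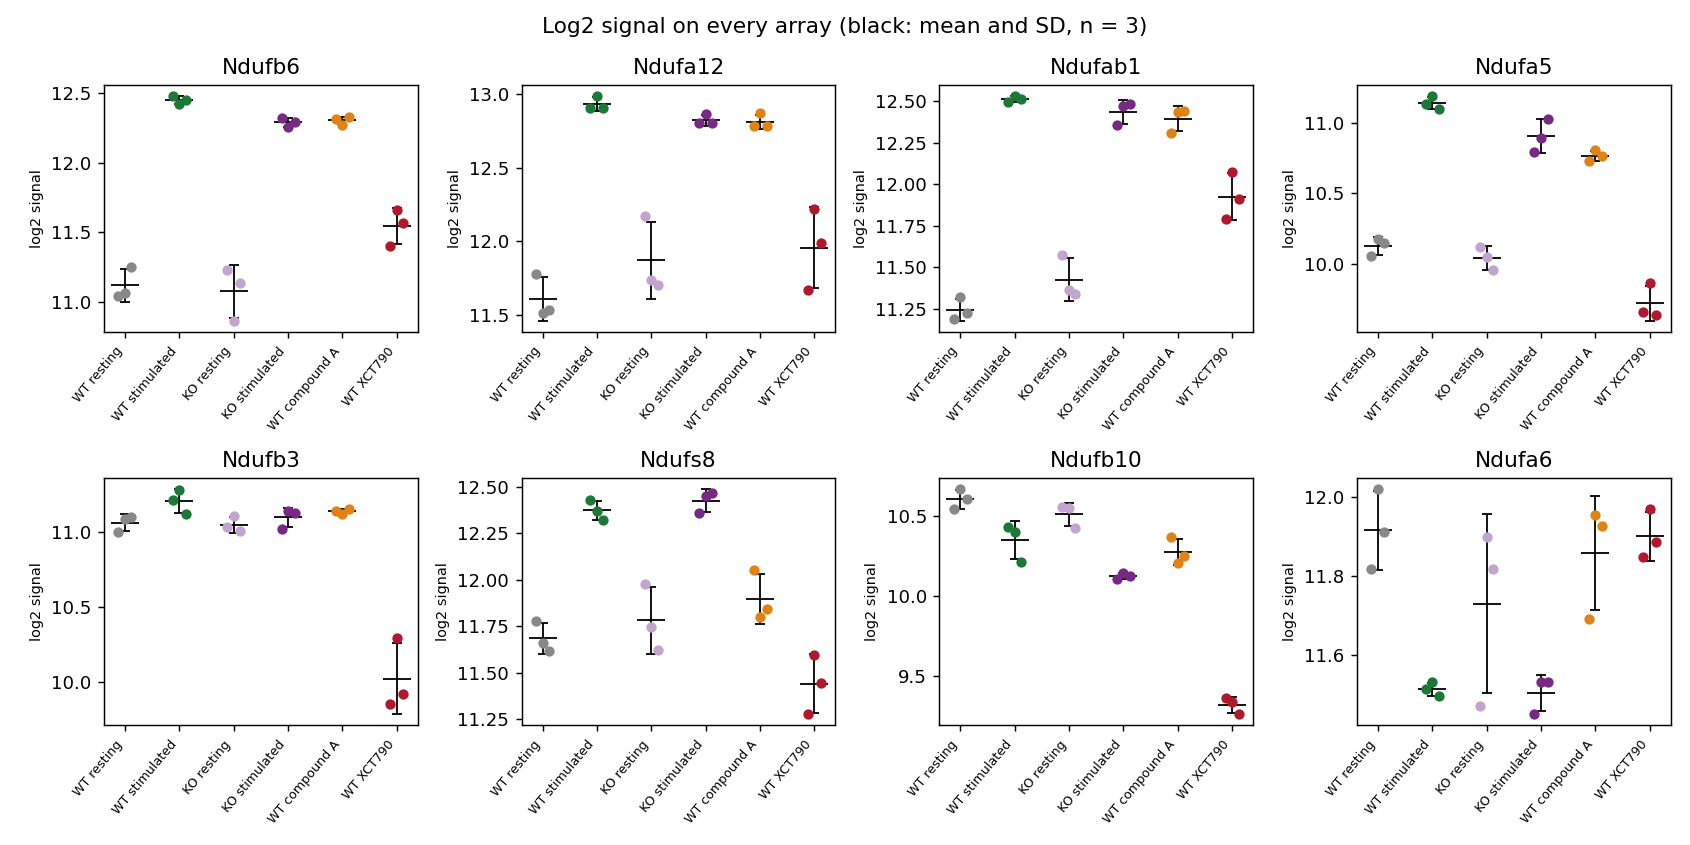
Log2 signal of 8 members on each array (points) by group, with the group mean and SD in black (n = 3); each panel has its own vertical scale. Ndufb6, Ndufa12, Ndufab1 and Ndufa5 are high in stimulated and compound A arrays, Ndufb3 and Ndufb10 are lowest in XCT790 by a wide gap, Ndufs8 falls with both inhibitors, and Ndufa6 is low in the 2 stimulated groups.

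The first comparison asked how activation changed wild-type cells. Of the 33 members, 23 rose, 7 fell and 3 did not pass, with a median difference of 0.32 against -0.01 over all 6873 genes. A change either way was called for 75.4% of all genes, a rise for 37.0% and a fall for 38.4%, by limma with Benjamini-Hochberg adjustment over all genes tested. All 6 core subunits of the peripheral arm rose, as did 4 of 8 accessory subunits of that arm and 11 of 17 of the membrane arm. In bulk samples, fewer cells of a type and less RNA per cell cannot be told apart; in the same comparison all 7 macrophage markers fell, and 4 of 6 T cell markers fell with 0 rising.

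Ndufb6 rose by 1.33 ± 0.09 (SE), or 2.51-fold (adjusted p 7.07e-09). Ndufa12 rose by 1.32 ± 0.13 (adjusted p 4.47e-07) and Ndufab1 by 1.27 ± 0.08 (adjusted p 3.86e-09). Next in size were Ndufa5 at 1.02, Ndufb2 at 0.95, Ndufb8 at 0.88, Ndufb7 at 0.73, Ndufc2 at 0.70, Ndufs8 at 0.69 and Ndufs5 at 0.67. Rises between 0.32 and 0.57 were found for Ndufa9, Ndufv1, Ndufs4, Ndufs3, Ndufb9, Ndufv2, Ndufc1 and Ndufa4. The smallest were those of Ndufs1 (0.30), Ndufa8 (0.27), Ndufb5 (0.25), Ndufs7 (0.25) and Ndufa1 (0.15).

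Ndufa6 fell by 0.40 on the log2 scale (SE 0.10, adjusted p 0.00221), Ndufv3 by 0.39 (adjusted p 0.00406) and Ndufb11 by 0.26 (adjusted p 0.00401). Ndufb10, Ndufa3, Ndufa2 and Ndufa13 fell by 0.26, 0.23, 0.22 and 0.17. For Ndufa10, Ndufb3 and Ndufa7, which did not pass, the differences were 0.18, 0.14 and 0.08. Ndufa10 passed as a rise on arrays shifted to a common median (0.23, adjusted p 0.0239), with the trended and robust prior (0.0496) and in a fit limited to these groups (0.0203). The differences across members ran from a 1.32-fold fall to a 2.51-fold rise. Across 13 alternatives 23 of the 30 calls were kept. Ndufa1, Ndufa13, Ndufs7, Ndufa8, Ndufv1, Ndufb5 and Ndufa3 lost theirs when some arrays were left out 1 at a time (adjusted p at most 0.0930): Ndufa1 without any array but stimulated replicate 3, Ndufa13 without resting 2 or 3 or stimulated 1 or 3, Ndufs7 without resting 2 or 3 or stimulated 1 or 2, Ndufa8 without resting 3 or stimulated 1 or 3, Ndufv1 without resting 2 or stimulated 1, Ndufb5 without resting 1 and Ndufa3 without stimulated 3. Ndufa13 also lost its call on arrays shifted to a common median (adjusted p 0.0959) and Ndufs7 with the mean of its probe sets (0.0612).

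In knockout cells, activation raised 19 members and lowered 4, and 10 did not pass, with a median of 0.28 against 0.02 over all genes. The background was 73.4% called either way, 37.7% up and 35.7% down. Markers of other cells fell in the same comparison: 7 of 7 erythroid (median -7.76), 7 of 7 macrophage (-7.42), 8 of 8 neutrophil (-3.91) and 5 of 5 B cell markers (-2.78), against medians of -2.95, -6.65, -1.51 and -3.32 in wild-type cells. Their part in the result was not tested. Ndufb6 rose by 1.21 ± 0.09 (adjusted p 2.37e-08), Ndufab1 by 1.01 ± 0.08 (adjusted p 5.12e-08) and Ndufa12 by 0.95 ± 0.13 (adjusted p 1.60e-05). Ndufb10 fell by 0.39 (adjusted p 1.81e-04), Ndufv3 by 0.38 (adjusted p 0.00466) and Ndufb11 by 0.23 (adjusted p 0.00810). The fourth fall was Ndufa2, by 0.17 (adjusted p 0.0223), which was lost without resting replicate 2 (adjusted p 0.0649) or 3 (0.0657) or stimulated replicate 1 (0.0948), on arrays shifted to a common median (0.0643) and in a fit limited to the groups compared (0.0992). Ndufb9 rose by 0.19 (adjusted p 0.0151) and lost its call without resting replicate 2 (adjusted p 0.0709) and in that limited fit (0.0775).

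The 19 rises in knockout cells were all among the 23 of wild-type cells, and the 4 falls among the 7. Ndufa1, Ndufs1, Ndufs7 and Ndufv1 passed as rises in wild-type but not in knockout cells, with knockout differences of 0.13, 0.20, -0.01 and 0.15. Ndufa6, Ndufa3 and Ndufa13 passed as falls in wild-type but not in knockout cells, with knockout differences of -0.23, -0.14 and -0.04. With the replicate number as a block, which pairs the knockout arrays, Ndufa6 (adjusted p 0.0172) and Ndufa3 (adjusted p 0.0423) also passed as falls in knockout cells. Ndufa6 also passed without resting replicate 1 (adjusted p 0.00161). It passed with the trended and robust prior too (0.0408).

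Rises in knockout cells were also called under some alternatives for genes that did not pass there. Ndufs1 passed with no filter on dim probe sets (adjusted p 0.0439), a floor of log2 6 (0.0486) and a common median (0.0253). It also passed with probe sets averaged (0.0470), the trended and robust prior (0.0453), and without resting replicate 1 (0.0203) or stimulated replicate 1 (0.00185). Ndufs1 has 1 probe set, so averaging left its difference at 0.20 and changed only the adjusted p. Ndufa1 passed with no filter (0.0291), a common median (0.0242) and the trended and robust prior (0.0305). Ndufv1 passed without resting replicate 1 (0.0141). A call in wild-type cells alone was therefore not stable for these genes.

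Whether the response differed between genotypes was tested directly, as the knockout response minus the wild-type response. No member passed (0.902% of all genes did), and the smallest adjusted p was 0.140, for Ndufb8. The members of smallest p were Ndufb8 (-0.36 ± 0.12, 95% interval -0.61 to -0.11), Ndufb9 (-0.26 ± 0.09, -0.46 to -0.06) and Ndufab1 (-0.26 ± 0.12, -0.51 to -0.01), each with the smaller rise in knockout cells by value. These intervals are not adjusted for the number of genes tested. This test shares its resting arrays with the comparison of resting genotypes below. In it 3 of 7 erythroid markers fell (median -3.88), and their part was not tested.

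The response was smaller or more negative in knockout cells for 22 of the 33 members by value, with a median of -0.10 against 0.05 over all genes. Ndufa12 had the lowest difference, -0.37 (95% interval -0.78 to 0.03), and Ndufa6 the highest, 0.18 (-0.13 to 0.48). Both intervals hold 0, and at 3 arrays a group they leave differences of the widths given unresolved.

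**Figure D3:**
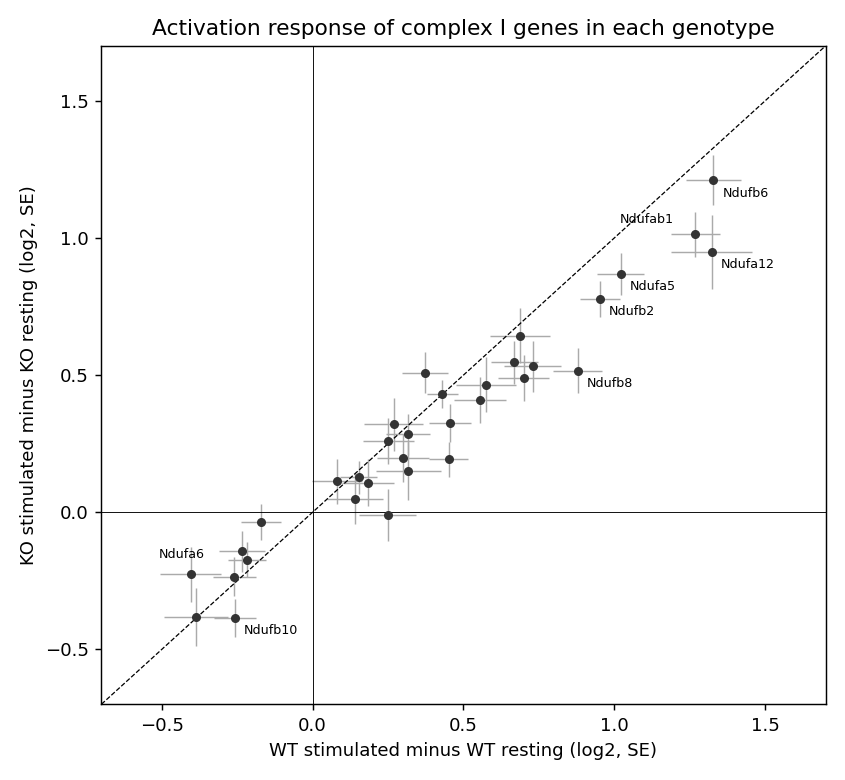
Difference between stimulated and resting cells (log2, with SE) in wild-type (horizontal) and knockout cells (vertical) for the 33 members; the dashed line marks equal responses. The 3 largest rises, Ndufb6, Ndufa12 and Ndufab1, are shared, and 22 members lie below the line.

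Loss of ERRα was then read at each state. At rest, 2 members were higher in knockout than in wild-type cells and 31 did not pass, with a median of -0.01 against -0.11 over all genes and a background of 19.0% called either way, 6.74% up and 12.3% down. Ndufb8 was higher by 0.34 ± 0.08 (adjusted p 0.0122) and Ndufb9 by 0.20 ± 0.06 (adjusted p 0.0445). Neither call was kept in every alternative. Ndufb8 lost it without resting wild-type replicate 2 (adjusted p 0.0501) and in a fit limited to the groups compared (0.0945). Ndufb9 lost it with the replicate block (0.0524), in that limited fit (0.166), with the mean of its probe sets (0.102), and without wild-type replicate 1, 2 or 3 (0.0918, 0.117 and 0.0901) or knockout replicate 1 or 3 (0.1555 and 0.0681). The probe sets averaged for Ndufb9 include one under the floor on all arrays, with a mean of 2.23. With the block, which pairs these arrays, Ndufs4 passed as lower in knockout cells (-0.22, adjusted p 0.0448, against 0.0586 without it). Ndufs4 also passed with the mean of its probe sets (-0.40, adjusted p 0.0216) and without knockout replicate 2 (0.0279). In the same comparison 6 of 7 erythroid and 6 of 8 neutrophil markers rose, 3 of 5 B cell markers fell (median -1.03) and 0 of 7 macrophage markers passed, with neutrophil array means from 6.63 to 9.07 in knockout and from 3.88 to 5.57 in wild-type cells, and their part in these differences was not tested.

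After stimulation, 0 of 33 members passed between knockout and wild-type cells in limma's test, where 2.18% of all genes were called either way, 1.59% up and 0.597% down. The smallest adjusted p was 0.132. The median was -0.07, close to the -0.06 over all genes, and 28 members were lower by value. The lowest values were those of Ndufs7 (-0.30, 95% interval -0.50 to -0.09, adjusted p 0.137), Ndufa5 (-0.24, -0.40 to -0.07, adjusted p 0.148) and Ndufb10 (-0.22, -0.37 to -0.07, adjusted p 0.132). On the arrays themselves, all 3 stimulated knockout arrays of each of these genes lay below all 3 stimulated wild-type arrays. The share of all genes separated in this way was not counted, so no genotype difference is drawn from it. The value of Ndufs7 rests in part on knockout replicate 1, the lowest array, without which it was -0.19 (adjusted p 0.466) and that of Ndufb10 was the lowest (-0.21). Neutrophil markers also stood apart on that array, with a mean of 5.36 against 2.69 and 2.89 on the other two, and their part was not tested. Over all 33 members the interval bounds ran from -0.50 to 0.27, so a change of up to 0.50 downward was not resolved for the widest of them. Ndufa5 passed as a fall when the mean of its probe sets was used (-0.24, adjusted p 0.0486).

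Of the 3 groups set against stimulated wild-type cells, whose 3 arrays they share as controls, XCT790 had the lowest median. Against stimulated wild-type cells 30 of 33 members were lower, Ndufa6 was higher and Ndufa2 and Ndufv3 did not pass, with a median of -0.81 against -0.06 over all genes. The background was 66.0% of genes called either way, 29.1% up and 36.9% down. All 6 core subunits of the peripheral arm fell, as did 5 of 8 accessory subunits of that arm and 17 of 17 of the membrane arm, together with Ndufab1 and Ndufa4. The dap control separates these groups of arrays too, and the 3′ probe set of β-actin exceeded the 5′ one by 0.74 ± 0.06 with XCT790 against 0.54 ± 0.03 in stimulated wild-type cells, a measure of RNA integrity. The same measure on Gapdh was 0.0046 ± 0.03 with XCT790 and 0.03 ± 0.04 in stimulated wild-type cells, which did not separate the groups. Of 6 T cell markers, 3 fell and 1 rose. NK cell markers had array means from 4.50 to 4.89 with XCT790 and from 5.70 to 6.05 in stimulated wild-type cells. Of these, Nkg7 had group means of 4.27 and 8.24, and Klrd1 of 7.76 and 7.10. B cell markers had array means from 5.04 to 5.19 and from 4.97 to 5.23. The part of these measures in the result was not tested.

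Ndufa5 fell by 1.43 on the log2 scale (SE 0.08), a 2.69-fold drop (adjusted p 4.22e-09). Ndufb3 fell by 1.18 (adjusted p 9.07e-08) and Ndufb2 by 1.16 (adjusted p 5.48e-09). Ndufs5, Ndufa4, Ndufb10 and Ndufa9 also fell by at least 1, by 1.14, 1.13, 1.03 and 1.01. Differences from -0.97 to -0.81 were found for Ndufa12, Ndufs8, Ndufa10, Ndufb6, Ndufa8, Ndufb9, Ndufb7, Ndufv1, Ndufs3 and Ndufb5. Those from -0.76 to -0.52 belonged to Ndufs4, Ndufb8, Ndufc2, Ndufc1, Ndufs1, Ndufab1, Ndufv2 and Ndufa3.

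The shallowest falls were those of Ndufs7 (-0.49), Ndufa1 (-0.48), Ndufa7 (-0.47), Ndufb11 (-0.27) and Ndufa13 (-0.23). Ndufa6 was higher by 0.39 ± 0.10, or 1.31-fold (adjusted p 0.00358). Ndufa2 differed by 0.09 (95% interval -0.04 to 0.22) and Ndufv3 by 0.09 (-0.14 to 0.31). Of the 31 calls, 30 were kept in all 13 alternatives. The exception was Ndufab1, whose difference was -0.11 (adjusted p 0.392) with the mean of its probe sets, and its other detected probe set read -0.04 against -0.59 on the chosen one. Other probe sets at or above the floor had the sign of the chosen one in 29 of 29 cases, from 18 genes.

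**Figure D4:**
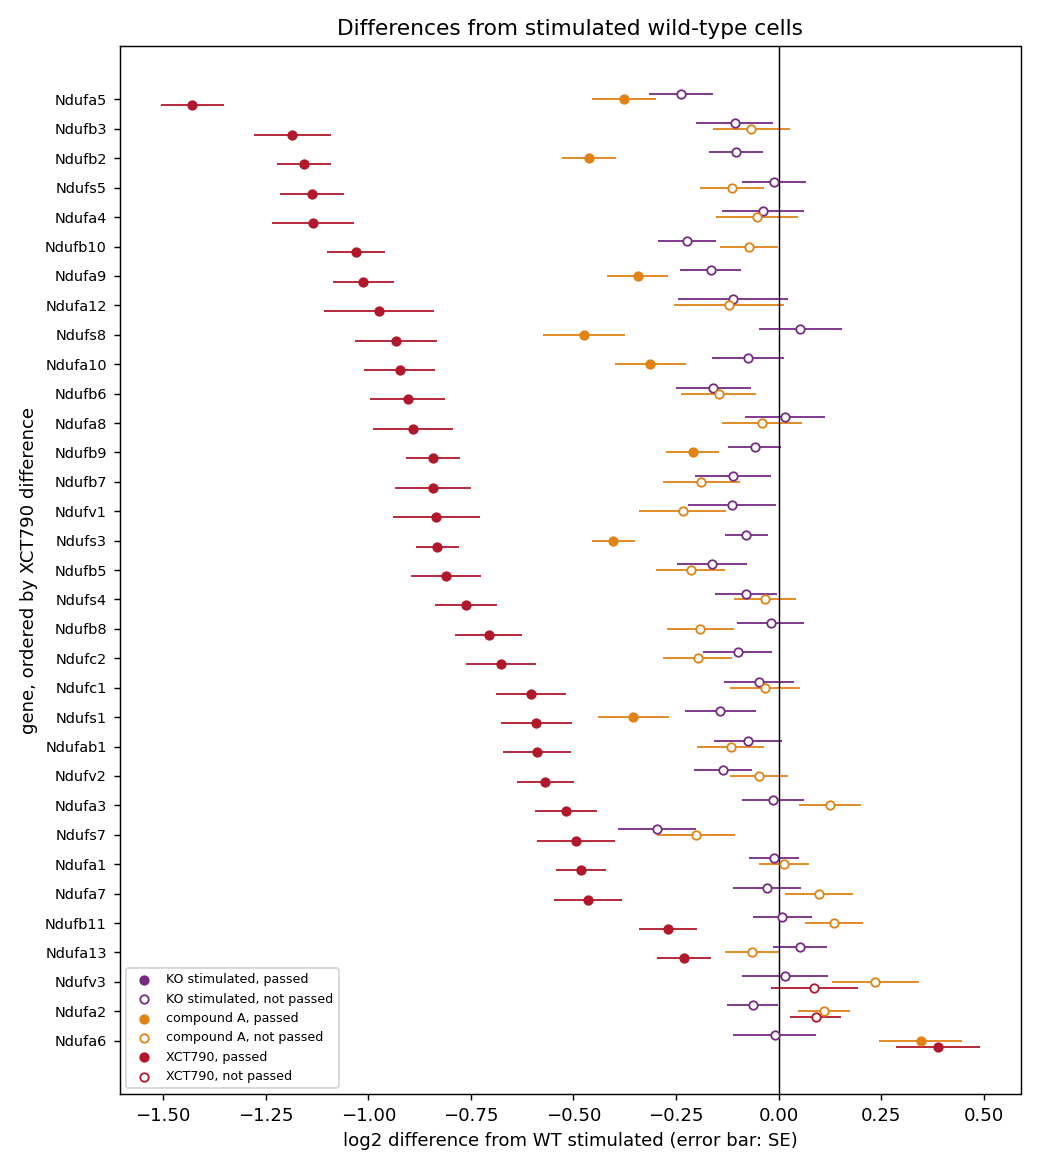
Log2 difference from stimulated wild-type cells (with SE) for stimulated knockout cells, compound A and XCT790, for the 33 members ordered by the XCT790 difference; filled points passed the test. XCT790 points reach -1.43 (Ndufa5), compound A points lie between -0.47 and 0.35, and no knockout point is filled.

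Against resting wild-type cells, XCT790 left 23 members lower, 3 higher and 7 that did not pass, with a median of -0.38 against -0.05 over all genes and a background of 71.9% called, 33.6% up and 38.3% down. The resting arrays are also the controls of the activation comparison. Ndufb10 differed by -1.29 ± 0.07 (adjusted p 7.60e-10), Ndufb3 by -1.04 ± 0.09 (adjusted p 1.35e-07) and Ndufa3 by -0.75 ± 0.08 (adjusted p 4.65e-07). Ndufab1 remained above rest by 0.68 ± 0.08 (adjusted p 3.40e-06) and Ndufb6 by 0.42 ± 0.09 (adjusted p 7.40e-04).

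Ndufa12 was higher by 0.35, although its arrays overlapped and the call was lost without resting replicate 2 or 3 or without XCT790 replicate 2 or 3 (adjusted p 0.0987, 0.0889, 0.160 and 0.0735). Ndufs7 lost its call without any 1 array but XCT790 replicate 2 (adjusted p up to 0.120), Ndufs8 without resting 1 or 2 or XCT790 1 or 3 (up to 0.175), and Ndufv3 without resting 1 or XCT790 1 (0.0524 and 0.105). Ndufa2, Ndufa6, Ndufb7, Ndufb8, Ndufc1, Ndufc2 and Ndufv2 did not pass, with differences from -0.13 to 0.17. Of these, Ndufb7 passed as lower with the mean of its probe sets (-0.28, adjusted p 0.00985, against -0.11 on the chosen one) and without XCT790 replicate 2 (-0.21, 0.0488). Ndufv2 passed as lower without XCT790 replicate 2 (-0.17, 0.0410), Ndufa2 with no filter on dim probe sets (0.0439), and Ndufb8 as higher without XCT790 replicate 1 (0.23, 0.0242). Ndufa12 also lost its call with no filter on dim probe sets (0.0518), with the mean of its probe sets (0.0648) and in a fit limited to the groups compared (0.0921), where Ndufb2 (0.0504), Ndufs8 (0.0760) and Ndufv3 (0.0611) lost theirs too. Shifting the arrays to a common median left 18 lower and 4 higher: Ndufb2 (0.172), Ndufs1 (0.0618), Ndufs7 (0.178), Ndufs8 (0.200) and Ndufv3 (0.0966) no longer passed, and Ndufb8 did (0.27, adjusted p 0.00855). Resting cells were not cultured and carried the macrophage signal, so that culture, stimulation and inhibitor cannot be told apart in this contrast.

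Compound A changed fewer members. Against stimulated wild-type cells 8 fell, Ndufa6 rose and 24 did not pass, with a median of -0.12 against -0.03 over all genes, where 33.2% of genes were called either way, 14.5% up and 18.7% down. Ndufs8 differed by -0.47 ± 0.10 (adjusted p 0.00271), Ndufb2 by -0.46 ± 0.07 (adjusted p 1.64e-04) and Ndufs3 by -0.40 ± 0.05 (adjusted p 7.78e-05). The others that fell were Ndufa5 (-0.38), Ndufs1 (-0.35), Ndufa9 (-0.34), Ndufa10 (-0.31) and Ndufb9 (-0.21). Ndufs1, Ndufs3 and Ndufs8 are core subunits. With XCT790, against the same control arrays, these 8 had differences of -0.93 (Ndufs8), -1.16 (Ndufb2), -0.83 (Ndufs3), -1.43 (Ndufa5), -0.59 (Ndufs1), -1.01 (Ndufa9), -0.92 (Ndufa10) and -0.84 (Ndufb9).

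Ndufa6 was higher by 0.35 ± 0.10 (adjusted p 0.0178). It lost that call without stimulated replicate 3 (adjusted p 0.0526) or compound A replicate 2 (0.0769) or 3 (0.0692). Ndufb9 lost its call without stimulated replicate 2 or 3 (0.0871 and 0.0515) or compound A replicate 1 or 3 (0.0700 and 0.0568) and with the mean of its probe sets (0.112), and Ndufa10 without compound A replicate 3 (0.0535). A fit on the 2 groups alone called 15 falls and 1 rise, adding Ndufb5, Ndufb6, Ndufb7, Ndufb8, Ndufc2, Ndufs7 and Ndufv1. Among members that did not pass, Ndufv1 had a difference of -0.23 (95% interval -0.46 to -0.01) and Ndufa1 one of 0.01 (-0.12 to 0.14).

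Compared with resting cells, compound A left 16 members higher, 2 lower and 15 that did not pass, with a median of 0.18 against -0.05 over all genes and a background of 69.7% called, 32.6% up and 37.1% down. Ndufa12 was higher by 1.20 ± 0.13 (adjusted p 1.77e-06), Ndufb6 by 1.18 ± 0.09 (adjusted p 4.10e-08) and Ndufab1 by 1.15 ± 0.08 (adjusted p 1.83e-08). The 2 lower ones were Ndufb10 (-0.33 ± 0.07, adjusted p 7.56e-04) and Ndufa13 (-0.24 ± 0.07, adjusted p 0.00512). Ndufs1, Ndufs3, Ndufa9 and Ndufa10, which fell against stimulated cells, did not pass against resting ones, with differences of -0.05, 0.03, -0.03 and -0.13. Of the 18 calls, Ndufa8 (0.23, adjusted p 0.0498) was lost without any 1 of the 6 arrays (adjusted p up to 0.126), and Ndufa1 (0.17) without resting replicate 2 or 3 or compound A replicate 1 (0.0511, 0.0634 and 0.0796). Ndufa8 also lost its call with no filter on dim probe sets (0.0593), and Ndufs4 went from 0.34 to 0.22 (adjusted p 0.0908) with the mean of its probe sets. Ndufa7 gained a call with a common median (0.0144), the mean of its probe sets (0.00663), the trended and robust prior (0.0479), and without resting replicate 2 (0.0469) or compound A replicate 1 (0.0288). Ndufs8 gained one with a common median (0.0196) and the mean of its probe sets (0.0309), and Ndufv3 one as lower without compound A replicate 1 (-0.26, 0.0424).

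The 2 inhibitors were given at the same dose and time, and this was the only pair of compounds compared. Their direct comparison found 30 members lower with XCT790 and 0 higher, and 3 did not pass, with a median of -0.60 against -0.02 over all genes and a background of 52.6% called, 24.8% up and 27.8% down. Ndufb3 differed by -1.12 ± 0.09 (adjusted p 4.16e-07), Ndufa4 by -1.08 ± 0.10 (adjusted p 1.02e-06) and Ndufa5 by -1.05 ± 0.08 (adjusted p 1.26e-07). For the other members named under compound A, XCT790 minus compound A was -0.24 for Ndufs1, -0.43 for Ndufs3, -0.46 for Ndufs8, -0.69 for Ndufb2, -0.67 for Ndufa9, -0.61 for Ndufa10 and -0.63 for Ndufb9. Both inhibitor groups lie on the same side of the dap control difference. The β-actin measure of RNA integrity did differ, at 0.74 ± 0.06 with XCT790 and 0.48 ± 0.06 with compound A. On Gapdh it was 0.0046 ± 0.03 and -0.05 ± 0.06. NK cell markers had array means from 4.50 to 4.89 with XCT790 and from 5.46 to 5.81 with compound A. The part of these measures in this comparison was not tested.

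For Ndufa6, Ndufa2 and Ndufv3 the inhibitors did not differ by the test, with 95% intervals of -0.17 to 0.26, -0.15 to 0.11 and -0.38 to 0.08. These bound a difference without showing that the compounds act alike. Calls for Ndufs1, Ndufa13 and Ndufs7 were lost when arrays were left out 1 at a time: Ndufs1 without XCT790 replicate 2 or 3 or any compound A array (adjusted p up to 0.0833), Ndufa13 without XCT790 replicate 1 or 3 or compound A replicate 2 or 3 (up to 0.142), and Ndufs7 without XCT790 replicate 1 (0.0769). On arrays shifted to a common median, Ndufa13 (adjusted p 0.0861) and Ndufs1 (0.0582) lost their calls too, as did Ndufa13 in a fit limited to the groups compared (0.0667). Ndufab1 lost its call with the mean of its probe sets (-0.20, adjusted p 0.157), and Ndufv3 passed as lower with XCT790 without XCT790 replicate 2 (0.0465).

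Stimulated knockout cells served as a further reference, a comparison added after the data had been seen. XCT790 arrays were lower for 29 members and higher for Ndufa6 (0.40 ± 0.10, adjusted p 0.00313) and Ndufa2 (0.15 ± 0.06, adjusted p 0.0437), with 65.2% of all genes called, 31.3% up and 33.9% down. Ndufa5 differed by -1.19 ± 0.08, Ndufs5 by -1.13 ± 0.08 and Ndufa4 by -1.10 ± 0.10, and Ndufs7 (-0.20) and Ndufv3 did not pass. Ndufs7 passed as lower with the mean of its probe sets (-0.35, adjusted p 0.00396), without XCT790 replicate 2 (-0.26, 0.0368) and without knockout replicate 1 (-0.30, 0.00918). Ndufab1, 1 of the 29, went from -0.51 to -0.02 (adjusted p 0.897) with the mean of its probe sets. Ndufa2 lost its call without XCT790 replicate 1 or 2 or knockout replicate 1 or 3 (adjusted p up to 0.165). Compound A arrays were lower than stimulated knockout arrays for Ndufs8 (-0.53 ± 0.10), Ndufb2 (-0.36 ± 0.07) and Ndufs3 (-0.32 ± 0.05) and higher for Ndufa6 (0.36 ± 0.10, adjusted p 0.0194), with 26.1% of all genes called, 14.1% up and 12.0% down. With probe sets averaged, Ndufa10 (-0.20, adjusted p 0.0494) and Ndufa5 (-0.18, 0.0455) passed too. Ndufa10 also passed with the trended and robust prior (0.0386) and in a fit limited to the groups compared (0.0382). Ndufa2 has 1 probe set, and its difference of 0.17 passed with probe sets averaged (0.0455) and the trended and robust prior (0.0331). It passed too with no filter (0.0342), a floor of log2 6 (0.0489) and without compound A replicate 1 (0.0235). Ndufs1 passed without knockout replicate 1 (-0.32, adjusted p 0.00856). The call for Ndufa6 was lost without compound A replicate 2 or 3 or knockout replicate 1 (0.0855, 0.0760 and 0.0613). Genotype and inhibitor differ together in both comparisons.

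Genes that work beside the subunits were given as lists. Of 13 tested assembly factors, which build complex I without staying in it, 9 rose and 2 fell on activation of wild-type cells, with a median of 0.78; that is 84.6% called, against 75.4% of all genes. Ndufaf4 rose by 1.88 ± 0.10 and Acad9 by 1.25 ± 0.13, while Ndufaf3 fell by 0.75 (adjusted p 0.0329). With XCT790, 10 fell and 0 rose against stimulated cells (76.9% falling against 36.9% of all genes, median -0.62), led by Foxred1 at -1.30 ± 0.15. Ndufaf4 did not pass there (0.15), and it was higher with XCT790 than with compound A (0.38 ± 0.10, adjusted p 0.00418). With compound A 5 of 13 fell, 38.5% against 18.7% of all genes. Between genotypes 0 of 13 passed after stimulation, and at rest 4 of 13 did (30.8% against 19.0% of all genes): Acad9 was higher in knockout cells (0.52), and Ndufaf5 (-0.69), Foxred1 (-0.62) and Dmac2 (-0.47) were lower.

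The other respiratory complexes are read by the same test. All 4 complex II subunits fell with XCT790 (median -0.95), among them Sdhd by 1.20 ± 0.10 and Sdhc by 1.09 ± 0.07, and 2 fell with compound A. Sdha was lower in resting knockout cells (-0.26, adjusted p 0.0118). Of 37 genes of complexes III, IV and V, 35 fell (94.6%, against 36.9% of all genes) and 2 rose with XCT790 (median -0.60), and 10 fell (27.0%, against 18.7%) and 1 rose with compound A. Of 74 mitochondrial ribosomal protein genes, 70 fell (94.6%) and 0 rose with XCT790 (median -0.92) and 48 fell (64.9%) with compound A. The wild-type activation response was 25 up and 3 down for complexes III, IV and V (75.7% called, median 0.26) and 66 up and 2 down for the mitochondrial ribosome (91.9% called, median 0.97), against 75.4% of all genes. Between stimulated genotypes 0 of 33 complex I, 0 of 4 complex II, 1 of 37 complex III, IV and V and 0 of 74 ribosomal genes passed, against 2.18% of all genes. Falls with XCT790 were thus counted in each of these lists beside the subunits.

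**Figure D5:**
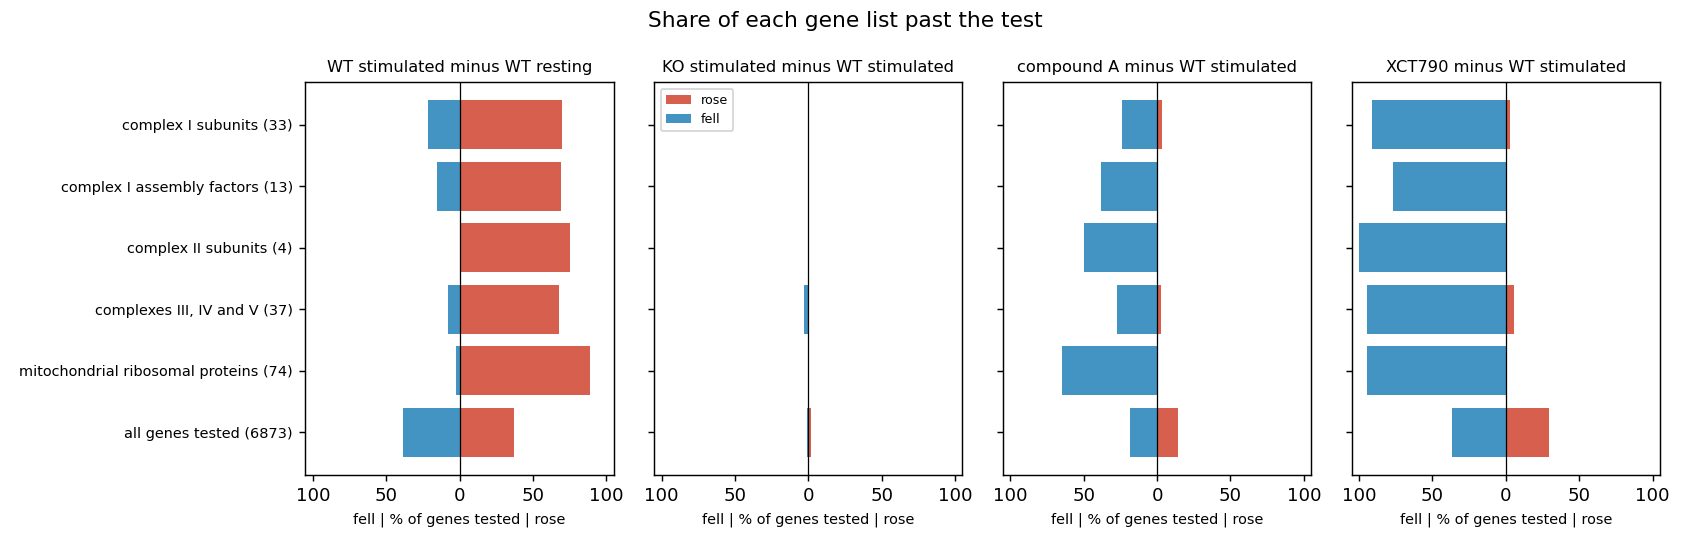
Share of each gene list that rose (right) or fell (left) past the test, in % of genes tested, in 4 comparisons; the number of genes tested is in brackets. With XCT790 the falls cover 90.9% of complex I genes and 36.9% of all genes, and between stimulated genotypes the bars are close to empty.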

How the data were processed

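RNA from 18 samples of CD4+ T cells was hybridised to Affymetrix Mouse Genome 430A 2.0 arrays, 1 sample an array. The deposited values are log2 signals made with GCRMA, per the submitters' processing notes, and the version was not given in the sources used here. The sorted values were identical on all arrays, from 1.83 to 15.4. Depth has no meaning for arrays; the 3 arrays a group limit the precision.

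The arrays hold 22690 probe sets, of which the 64 controls, the 1555 that name no gene and the 691 that name more than 1 were not used. For each gene the probe set of highest average signal was taken, and it was tested where at least 3 arrays reached log2 4. A model with 1 mean per group was fitted with limma (3.58.1, R 4.3.3) to 6873 genes, and p-values were adjusted by Benjamini-Hochberg within each comparison. A gene passed at an adjusted p under 0.05. The procedure was checked on simulated data, in which 58% of 1.5-fold and 88% of 2-fold changes were recovered, with 13 false calls. The simulated arrays varied independently of each other, unlike the same-numbered replicates described below. Only a small share of genes was changed in the simulation, whereas 75.4% of all genes were called on activation of wild-type cells. Its recovery rates therefore do not give the share of small changes missed in the real comparisons. On that activation a log2 difference of 0.15 passed (Ndufa1), while one of 0.18 did not (Ndufa10). Changes under 1.5-fold can go uncalled. Every member is named in the text, with array values for those of the largest changes or of exceptional pattern. The 2 comparisons of inhibitors with stimulated knockout cells were added after seeing the data. The members and lists were chosen with earlier results of these data known.

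Whether same-numbered replicates deviate together was checked by the correlation of their deviations from group means. All 3 correlations exceeded 0.1 for stimulated against resting knockout cells (0.336, 0.266 and 0.238), between the genotypes at rest (0.645, 0.406 and 0.254) and between them once stimulated (0.442, 0.384 and 0.148). The same held for XCT790 (0.253, 0.150 and 0.172) and compound A (0.474, 0.398 and 0.287) against stimulated wild-type cells, and for XCT790 (0.260, 0.198 and 0.147) and compound A (0.378, 0.394 and 0.166) against stimulated knockout cells. The labels name no source of this pairing. Alternatives were the filter, the floor, the scaling, the probe set rule, the replicate block, the prior, a fit limited to the groups compared and leaving out each array. The mean of a gene's probe sets took in all its single-gene probe sets, also those under the floor on every array. Ndufa10, Ndufa12, Ndufab1, Ndufb9 and Ndufs8 each had such a probe set. A call lost under this rule is therefore not by itself a disagreement between detected probe sets.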

Additional observations from a re-analysis of the deposited data

Results flagged for a closer look

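The 5′ probe set of the bacterial dap control, which carries no mouse signal, was higher by 2.67 on the log2 scale on the 12 knockout and inhibitor arrays than on the 6 untreated wild-type arrays, a signal outside the measured genes. The 3′ probe set of the same transcript differed by -0.01 and the middle one by 0.44, the lys and phe controls by -0.37 to -0.08 and the thr controls by -0.09 to 0.38. Every comparison of these arrays with untreated wild-type cells crosses that difference. The comparison of XCT790 with compound A, in which 30 of 33 complex I members were lower with XCT790, and the comparisons of inhibitors with stimulated knockout cells do not. In the β-actin measure of RNA integrity, however, XCT790 arrays had a mean of 0.74, against 0.48 with compound A and 0.44 in stimulated knockout cells. On Gapdh the means were 0.0046, -0.05 and -0.02. The part of the dap difference and of these measures in the results was not tested.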

How the results depend on the processing

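No comparison reversed its direction. Between genotypes at rest, a fit limited to the groups compared called 0 members in place of 2. After stimulation, averaging a gene's probe sets called 1 member, Ndufa5, in place of 0. For compound A against stimulated wild-type cells, that limited fit called 16 in place of 9, and against stimulated knockout cells averaging probe sets called 7 in place of 4. Leaving out 1 array at a time gave 25 to 28 members for wild-type and 21 to 26 for knockout activation, 0 to 3 between resting genotypes, and 0 to 0 between stimulated genotypes and for the difference of responses. It gave 31 to 31 for XCT790 and 6 to 9 for compound A against stimulated wild-type cells, 28 to 30 between the inhibitors, 23 to 27 and 16 to 18 for XCT790 and compound A against resting cells, and 30 to 31 and 3 to 5 against stimulated knockout cells. The replicate block called 25 members for knockout activation in place of 23. Where the numbers pair the samples, the block changed no other call than those of Ndufa3, Ndufa6, Ndufs4 and Ndufb9 given above; for compound A against resting cells, where they do not, Ndufa7 passed and Ndufa8 did not. Of 455 alternatives for 35 single gene results, 442 kept direction and side of the threshold and 13 no longer passed. The cause was not tested. Background correction was not varied, as scanner files were not analysed here. The 3 arrays a group and signals near background, as for Ndufb1, limit what can be resolved.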

Other observations

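Ndufb4, Ndufa11 and Ndufs6, further accessory subunits of complex I, were read only by probe sets annotated to several genes and were not members. The first probe set of Ndufb4, shared with Ndufb4b and Ndufb4c, had group means of 10.73 at rest, 11.21 after stimulation, 11.31 with compound A and 10.60 with XCT790 in wild-type cells, and 10.79 and 11.28 in resting and stimulated knockout cells. The probe set of Ndufa11, shared with Ndufa11b, had means of 10.17 at rest, 10.95 after stimulation, 10.77 with compound A and 9.97 with XCT790 in wild-type cells, and 10.02 and 10.94 in resting and stimulated knockout cells. That of Ndufs6, shared with Ndufs6b, had means of 10.47 at rest, 11.43 after stimulation, 11.28 with compound A and 10.46 with XCT790 in wild-type cells, and 10.51 and 11.27 in resting and stimulated knockout cells. In each, the XCT790 mean was the lowest of the 6 groups, and the part of each gene in the signal cannot be told apart.

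A probe set shared by Ndufs5 and its pseudogene had means of 10.82 at rest, 11.49 after stimulation, 11.26 with compound A and 10.34 with XCT790 in wild-type cells, and 10.90 and 11.43 in resting and stimulated knockout cells. A probe set shared by Ndufab1 and its pseudogene had means of 10.27 at rest, 11.56 after stimulation, 11.45 with compound A and 11.08 with XCT790 in wild-type cells, and 10.31 and 11.47 in resting and stimulated knockout cells. For Ndufab1 the XCT790 mean lay between the resting and the stimulated wild-type means, as on its own probe set.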
